A study of Mus musculus with 27 samples.

Results

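The comparison described here is the terminal differentiation of MEL cells, a mouse erythroleukaemia line used as a model of the erythroid progenitor: 2 RNA-Seq libraries of induced cells against 2 libraries of non-induced cells, 4 of the 27 samples of the series. The 4 libraries were chosen by the sample labels alone, and every one of the 16527 genes listed in the count table was considered. The gene lists used below were chosen with earlier results of these data known. The labels name no genotype change, tag or treatment in either group beyond induction itself, the cells carry no knockdown, and the inducing agent is not given in the sources used here. Induction lasted 96 h, a time the sample labels do not give. MEL cells are a transformed line, the line of the study being the C88 clone, so both groups come from 1 clone and the 4 libraries hold no variation between animals.

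Erythroid progenitors divide quickly, and on terminal differentiation they stop dividing and turn most of their transcription over to haemoglobin, the haem that fills it and the membrane skeleton that gives the red cell its shape. The transcription factor GATA1 and its partners TAL1, LMO2 and LDB1 sit at most of these genes in progenitors, and KLF1 acts at many of them. Mammalian red cells later lose their nucleus, mitochondria and ribosomes, and the transcription factors of the progenitor, such as MYB, are known to fall.

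The libraries held between 12187737 and 19623105 counts. At this depth 3 counts in a library correspond to between 0.149 and 0.252 CPM (counts scaled here to the library total and the TMM factor), the limit below which a level was not read. The 2 non-induced libraries correlated at 0.976 and the 2 induced libraries at 0.966 across genes (log scale, genes not being independent replicates), and libraries of different groups at 0.864 to 0.915. Induced replicate 2 stood apart in the reads of ribosomal RNA: Rn45s, the precursor of ribosomal RNA, held 1.11% of its counts against 0.292% in induced replicate 1 and 0.161% and 0.0913% in the non-induced libraries, and Lars2, a mitochondrial leucyl-tRNA synthetase, was highest there as well (0.772% against 0.0461%, 0.0313% and 0.0215%). The share of counts held by genes higher after induction is also given without Rn45s and Lars2. For the other results below the part of ribosomal reads was not tested. The values without induced replicate 2 are given where they change the call of a gene described. Lars2 itself was called higher after induction, but not without induced replicate 2 (log2 fold change of 0.78). Its call was also lost without non-induced replicate 1 or 2 (4.23 and 3.76), and that of Rn45s without non-induced replicate 2 (2.17).

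Of the 11713 genes with enough counts to be tested, 3187 (27.2%) differed between induced and non-induced cells at an adjusted p of at most 0.05 and a log2 fold change of at least 0.5 in size (edgeR quasi-likelihood test, 2 libraries against 2). Among them 1449 (12.4%) were higher after induction, here called raised, and 1738 (14.8%) were lower, here called lowered. The changes were large: 137 genes rose and 164 fell by more than 8-fold. Raised genes took 8.26% and 8.22% of all counts before induction and 19.5% and 22.5% after it (19.1% and 20.6% when Rn45s and Lars2 are left out), and lowered genes went from 22.6% and 21.5% to 11.1% and 8.03%. RNA amounts were scaled to a common total, so a fall in all transcripts per cell would not be seen, and fewer cells of one kind and less RNA per cell cannot be told apart in bulk samples.

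**Figure D1:**
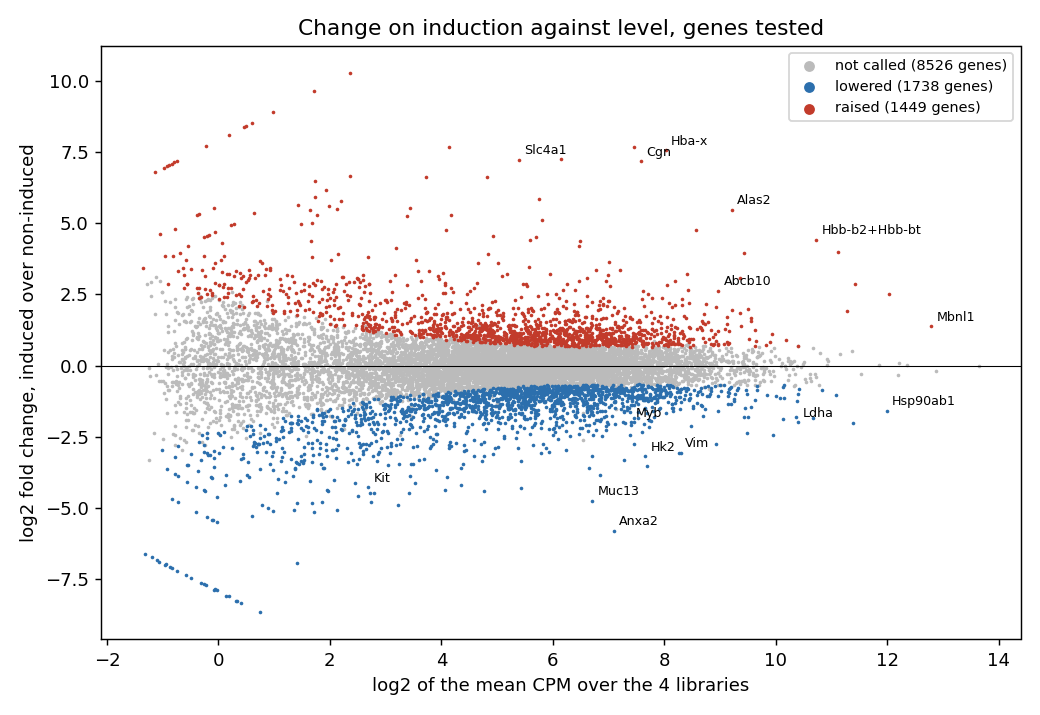
The log2 fold change of each tested gene (vertical axis) is plotted against the log2 of its mean CPM over the 4 libraries (horizontal axis), with the 1449 raised genes in red, the 1738 lowered genes in blue and genes not called in grey. Changes in both directions are seen from the lowest to the highest levels.

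The induced libraries were not equally far from the non-induced ones. Of the 1738 lowered genes 82.7% were higher in induced replicate 1 than in induced replicate 2 (median log2 ratio of 0.424), and of the 1449 raised genes 29.9% were (median of -0.193), against 48.1% of the genes not called. Between the non-induced libraries the corresponding share was 55.3% for lowered and 45.9% for raised genes. The cause of this difference was not tested. Without induced replicate 2, 1772 genes were called, without induced replicate 1, 3369, and without non-induced replicates 1 and 2 in turn, 1626 and 1522.

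The count of any gene list below is to be read against these shares of all tested genes, 12.4% raised and 14.8% lowered. The labelled cell type was checked against lists of markers. All 9 erythroid identity markers found in the table were tested, their summed level was 2320.0 and 2544 CPM before induction and 5558 and 4988 CPM after it, and 7 of them rose. Myeloid and lymphoid markers were low: of 16 myeloid markers 9 were listed and 2 passed the filter on low counts, of 15 lymphoid markers 8 were listed and 3 passed it, with summed levels of at most 18.7 and 6.14 CPM. The 5 mast cell and basophil markers listed summed to 97.5 and 59.0 CPM before and to 112 and 3.12 CPM after induction. Their median log2 fold change was 1.2, with 3 genes above 0 and 2 below, and 4 were not called. The 1 called, the histidine decarboxylase Hdc, was lowered from 68.9 and 49.3 to 21.2 and 0.284 CPM. Its call did not hold without non-induced replicate 1 or non-induced replicate 2 (adjusted p = 0.233 and 0.164) or in DESeq2 (adjusted p = 0.387).

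Globins, the chains of haemoglobin, had the highest median change of the lists. Of 12 names in the list 8 were listed, 5 passed the filter on low counts and all 5 rose, with a median log2 fold change of 6.62 against -0.02 for all genes tested. The adult beta-globin entry Hbb-b2+Hbb-bt, a combined name for genes whose reads the counting could not part, stood at 129.7 and 171 CPM in the non-induced and 3440.2 and 3004 CPM in the induced libraries, so that both induced libraries lay above both non-induced ones (log2 fold change of 4.42 ± 0.28 (SE), adjusted p = 5.11e-07). In RPKM, the authors' level per length, this entry moved from 239 to 5068 on average and became the second highest of all genes after the translation factor Eef1a1. The embryonic zeta-globin Hba-x gave 2.09 and 3.53 CPM in the non-induced and 588 and 449 CPM in the induced libraries (log2 fold change of 7.56 ± 0.37 (SE), adjusted p = 6.43e-08). The theta-globins Hbq1b and Hbq1a, chains of little known function, went from 0.299 and 1.77 to 153 and 129 CPM and from 0.299 and 0.925 to 63.8 and 47.4 CPM (7.26 ± 0.51, adjusted p = 9.64e-07 and 6.62 ± 0.47, adjusted p = 9.64e-07). The adult alpha-globin Hba-a1 had 1 and 0 counts in the non-induced libraries, under the limit of reading, and 22 in each induced one, and its call did not hold without non-induced replicate 1 or non-induced replicate 2 (adjusted p = 0.0719 and 0.0922). Hba-a1, Hbq1a and Hbq1b were so low before induction that they may have passed the filter only through the induced libraries. That would fix their direction, so the count of raised globins and the list median are no more than a description. Reads of near-identical globin copies may have been split or dropped in the counting, so the levels of single globin genes are uncertain.

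Most genes of haem synthesis rose, the first and the last enzyme among them. Of 13 genes tested 11 were raised and 0 lowered, with a median log2 fold change of 1.65, and the summed level of the list moved from 1232 and 1560 CPM to 5845 and 5531 CPM. Alas2, the erythroid form of the enzyme that starts the pathway, gave 23.1 and 29.2 CPM in the non-induced and 1228 and 1094 CPM in the induced libraries (log2 fold change of 5.48 ± 0.29 (SE), adjusted p = 1.11e-07). The second enzyme, Alad, went from 91.8 and 77.4 to 1504 and 1104 CPM (3.94 ± 0.28, adjusted p = 9.64e-07). Ferrochelatase (Fech), which inserts the iron, went from 93.7 and 124 to 399.8 and 548 CPM (2.13 ± 0.27, adjusted p = 1.36e-04). Abcb10, a transporter of the mitochondrial inner membrane, went from 132 and 146 to 895 and 828 CPM (2.63 ± 0.25, adjusted p = 1.12e-05). Coproporphyrinogen oxidase (Cpox) was 1 of 2 members not called, with 402 and 741 to 385 and 256 CPM (-0.84 ± 0.30, adjusted p = 0.0549). It was called lowered under 6 alternatives, among them DESeq2 (adjusted p = 0.0355), the replicate block (0.0378) and the fits without non-induced replicate 1 (0.0263) or induced replicate 1 (0.0116), so the count of 0 lowered members rests on the fit used.

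In iron handling 5 of 23 tested genes were raised and 3 lowered (21.7% and 13.0%, against 12.4% and 14.8% of all tested genes). The haem exporter Abcg2 rose from 15.3 and 24.1 to 163 and 237 CPM (3.35 ± 0.31, adjusted p = 1.08e-05). The iron-sulphur protein Glrx5 went from 54.6 and 52.1 to 147 and 157 CPM (1.51 ± 0.24, adjusted p = 6.53e-04). The cytosolic aconitase Aco1, which doubles as the iron sensor IRP1, fell from 97.5 and 105 to 51.5 and 44.7 CPM (-1.08 ± 0.24, adjusted p = 0.00561). Haem oxygenase (Hmox1), which breaks haem down, fell from 52.4 and 19.3 to 13.3 and 10.6 CPM (-1.59 ± 0.41, adjusted p = 0.0115), a call that did not hold without non-induced replicate 1 (adjusted p = 0.252). The transferrin receptor Tfrc was not called (948 and 1074 to 969.6 and 394 CPM, -0.57 ± 0.33, adjusted p = 0.223), but without induced replicate 1 its log2 fold change was -1.37 and it was called lowered (adjusted p = 0.00337).

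In the red cell membrane and its skeleton 21 of 31 tested genes were raised and 1 lowered (67.7% and 3.23%). The anion exchanger Slc4a1 (band 3), the main membrane protein of the red cell, was at 0.747 and 0.252 CPM in the non-induced and 51.5 and 115 CPM in the induced libraries (log2 fold change of 7.23 ± 0.52 (SE), adjusted p = 1.06e-06), and both induced libraries lay far above both non-induced ones. It held 15 and 3 counts in the non-induced libraries, the latter at the limit of reading, so the size of this rise is uncertain. Slc4a1 may have passed the filter on low counts only through the induced libraries, which would fix its direction. Protein 4.2 (Epb4.2), which ties band 3 to the skeleton, went from 3.19 and 5.63 to 94.4 and 104 CPM (4.51 ± 0.33, adjusted p = 1.26e-06). The Rh antigen Rhd went from 4.28 and 12.4 to 159 and 184 CPM (4.39 ± 0.41, adjusted p = 1.12e-05). Skeleton genes that were already well expressed rose less in fold. Sptb, beta-spectrin, went from 332 and 431 to 1108 and 1136 CPM (1.56 ± 0.24, adjusted p = 6.53e-04). Ank1, ankyrin, went from 136 and 167 to 548 and 456 CPM (1.73 ± 0.25, adjusted p = 3.49e-04). Tropomodulin (Tmod1), which caps actin filaments, rose from 20.7 and 18.5 to 111 and 139 CPM (2.67 ± 0.26, adjusted p = 1.85e-05). The exception was Add2, beta-adducin, which was lower (551 and 511 to 322 and 311 CPM, -0.75 ± 0.23, adjusted p = 0.0281) but not called without non-induced replicate 1, non-induced replicate 2, induced replicate 1 or induced replicate 2 (adjusted p = 0.0878, 0.0568, 0.103 and 0.199).

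Of 16 red cell enzymes 6 were raised and 3 lowered (37.5% and 18.8%, against 12.4% and 14.8% of all tested genes). Carbonic anhydrase Car2 rose from 303 and 269 to 944 and 1116 CPM (1.85 ± 0.24, adjusted p = 1.90e-04). The peroxide scavenger Prdx2 went from 339 and 293 to 802 and 749 CPM (1.29 ± 0.24, adjusted p = 0.00172). Bpgm, which makes 2,3-bisphosphoglycerate, went from 10.2 and 13.8 to 31.0 and 38.2 CPM (1.54 ± 0.31, adjusted p = 0.00320). The pyruvate kinase of red cells, Pklr, went down from 128 and 179 to 58.0 and 59.5 CPM (-1.39 ± 0.25, adjusted p = 0.00172).

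**Figure D2:**
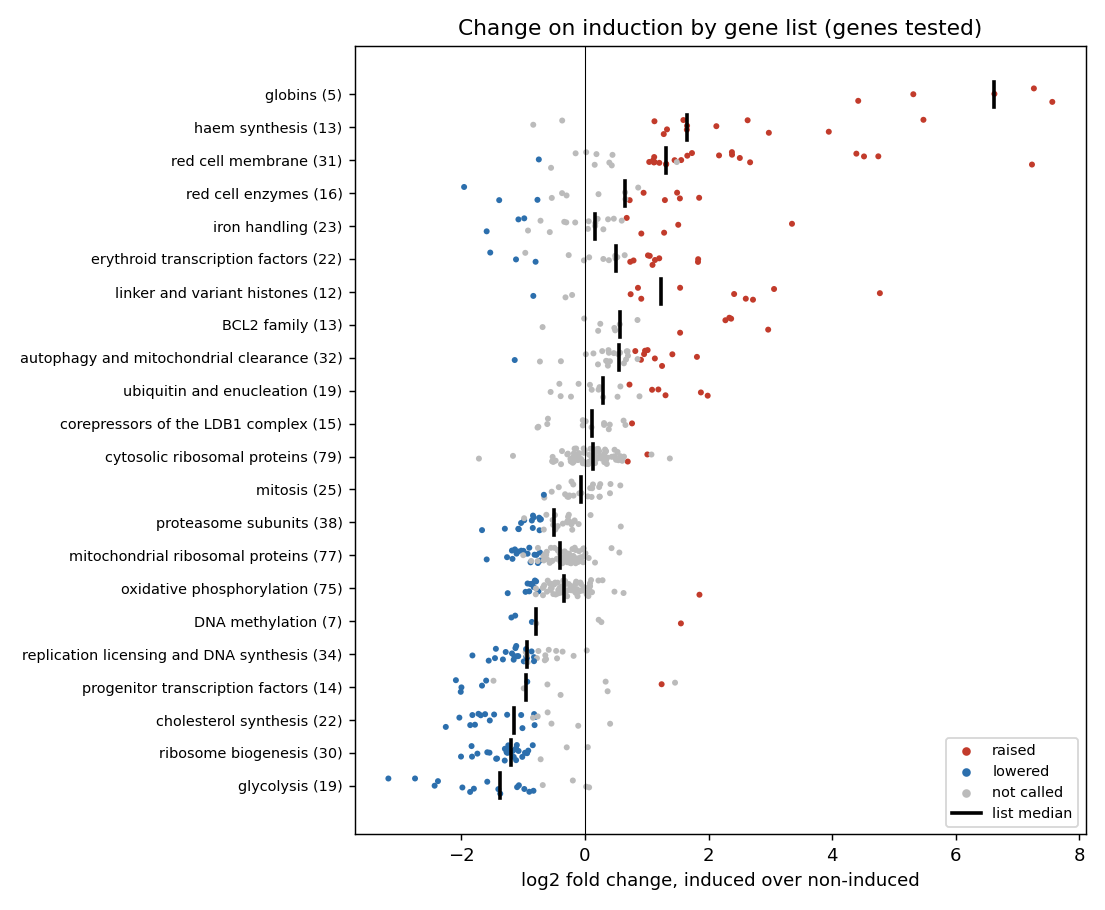
Each point is the log2 fold change of a tested gene (horizontal axis), sorted into gene lists (rows, number of tested genes in brackets), with raised genes in red, lowered genes in blue, genes not called in grey and the list median as a black bar. Globins, haem synthesis and the red cell membrane lie to the right, and glycolysis, ribosome biogenesis, cholesterol synthesis and DNA replication to the left.

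Among 22 transcription factors of the erythroid lineage 9 were raised and 3 lowered (40.9% and 13.6%, the latter near the 14.8% of all tested genes). Tal1 rose from 201 and 166 to 683 and 621 CPM (1.83 ± 0.24, adjusted p = 2.08e-04). The GATA1 cofactor Zfpm1 (FOG1) went from 363 and 239 to 761 and 624 CPM (1.20 ± 0.26, adjusted p = 0.00496). The KLF1 target Klf3 went from 20.8 and 17.2 to 68.6 and 67.0 CPM (1.83 ± 0.26, adjusted p = 3.57e-04). Gata1 itself went from 399 and 347 to 614 and 625 CPM (0.73 ± 0.23, adjusted p = 0.0312), but lost its call without non-induced replicate 1, non-induced replicate 2, induced replicate 1 or induced replicate 2 (adjusted p = 0.0612, 0.112, 0.103 and 0.149). Klf1 went from 92.2 and 71.3 to 189.6 and 142 CPM (1.02 ± 0.26, adjusted p = 0.0103) and lost its call without non-induced replicate 2 or induced replicate 1 (adjusted p = 0.0980 and 0.0571). Gfi1b, a repressor bound to the LDB1 complex, went from 163 and 142 to 261 and 265 CPM (0.79 ± 0.23, adjusted p = 0.0240), a call that did not hold without non-induced replicate 1, non-induced replicate 2, induced replicate 1 or induced replicate 2 (adjusted p = 0.0615, 0.114, 0.0631 and 0.0960). Lmo2, the bridge between TAL1 and LDB1, moved the other way, from 316 and 281 to 123 and 83.3 CPM (-1.53 ± 0.26, adjusted p = 0.00111). Bcl11a, a repressor of embryonic globins, and Ikzf1 were also lowered (-1.11 ± 0.31, adjusted p = 0.0165, and -0.80 ± 0.24, adjusted p = 0.0239). The call of Bcl11a was lost without non-induced replicate 2 or induced replicate 2 (adjusted p = 0.148 and 0.179). That of Ikzf1 was lost without non-induced replicate 1, non-induced replicate 2 or induced replicate 2 (adjusted p = 0.0783, 0.0692 and 0.240). Ldb1, the scaffold, was not called (392 and 456 to 363 and 345 CPM, -0.26 ± 0.23, adjusted p = 0.429).

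Of 15 tested genes of the corepressors that bind the LDB1 complex 1 was raised, the nuclear receptor corepressor Ncor1 (326 and 411 to 539.6 and 710.4 CPM, 0.76 ± 0.25, adjusted p = 0.0360), and that call did not hold without non-induced replicate 1, non-induced replicate 2 or induced replicate 2 (adjusted p = 0.184, 0.0522 and 0.305). Cbfa2t3, which encodes ETO2, gave 458 and 256 against 629.9 and 471 CPM (0.63 ± 0.29, adjusted p = 0.124). It was called raised with the replicate block (0.67, adjusted p = 0.0192) and without non-induced replicate 1 (1.09, adjusted p = 0.0374). Irf2bp2, which encodes an ETO2 partner, gave 151 and 139 against 171 and 112 CPM (-0.03 ± 0.26, adjusted p = 0.940). A p that misses the limit with 2 libraries a group does not show that these genes were unchanged.

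Transcription factors of the progenitor fell more often than they rose, 6 of 14 tested genes being lowered and 1 raised, with a median log2 fold change of -0.96. Myb, which keeps progenitors dividing, stood at 242 and 298 CPM in the non-induced and 96.9 and 38.3 CPM in the induced libraries (log2 fold change of -2.00 ± 0.35 (SE), adjusted p = 0.00143), and induced replicate 2 was the lowest of the 4. Myc went from 359 and 314 to 157 and 65.6 CPM (-1.60 ± 0.34, adjusted p = 0.00395). Meis1 went from 111 and 104 to 38.5 and 12.1 CPM (-2.09 ± 0.40, adjusted p = 0.00220). The immediate early gene Egr1 went from 72.1 and 41.5 to 14.8 and 13.5 CPM (-2.01 ± 0.32, adjusted p = 6.53e-04). Spi1, which encodes PU.1, the factor through which virus insertion transforms such lines, went from 83.7 and 44.1 to 27.9 and 12.5 CPM (-1.66 ± 0.38, adjusted p = 0.00635), a call that did not hold without non-induced replicate 1 (adjusted p = 0.106). Runx1 was the member that rose, from 121 and 118 to 288 and 277 CPM (1.24 ± 0.23, adjusted p = 0.00215). Gata2 was not called (-0.99 ± 0.42, adjusted p = 0.0952), but it was called lowered with no filter (adjusted p = 0.0183), with the replicate block (0.0172) and without induced replicate 1 (-1.63, adjusted p = 0.00212).

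Among cytokine receptors and their signalling genes, 4 of 20 were raised and 3 lowered, counts near the 12.4% and 14.8% of all tested genes. The stem cell factor receptor Kit went from 12.8 and 11.8 to 1.24 and 0 CPM (-4.28 ± 0.78, adjusted p = 0.00175), and induced replicate 2 held no count for it, which allows up to 0.213 CPM. DESeq2 did not call it (adjusted p = 0.158). The erythropoietin receptor Epor rose from 254 and 156 to 402 and 476 CPM (1.10 ± 0.27, adjusted p = 0.00952), a call lost without non-induced replicate 2 (adjusted p = 0.0771). Ptpn6, the phosphatase that quenches both receptors, was lowered (96.2 and 93.2 to 42.4 and 29.1 CPM, -1.40 ± 0.26, adjusted p = 0.00199).

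Of 34 replication genes 20 were lowered and none raised (median log2 fold change of -0.94). Orc1, of the origin recognition complex, went from 73.1 and 45.2 to 21.9 and 11.6 CPM (-1.82 ± 0.34, adjusted p = 0.00219). The helicase subunit Mcm3 went from 341 and 299.8 to 151 and 85.4 CPM (-1.44 ± 0.28, adjusted p = 0.00274). Its loading partner Cdc45 went from 83.7 and 75.9 to 32.9 and 21.3 CPM (-1.56 ± 0.28, adjusted p = 0.00142). Of 25 mitosis genes 1 was lowered, against 14.8% of all tested genes, the kinesin Kif20a (128 and 129 to 76.6 and 86.1 CPM), whose call was lost without non-induced replicate 1, non-induced replicate 2, induced replicate 1 or induced replicate 2 (adjusted p = 0.122, 0.132, 0.201 and 0.146). The mitotic kinases were not called, with Cdk1 at 250.4 and 259 against 211 and 213 CPM (-0.26 ± 0.23, adjusted p = 0.420), Plk1 at 111 and 128 against 92.0 and 99.3 CPM (-0.32 ± 0.24, adjusted p = 0.332) and Aurkb at 105 and 80.8 against 90.4 and 69.2 CPM (-0.22 ± 0.25, adjusted p = 0.558). Whether the replication and mitosis lists differ was not tested. Among 24 regulators of the G1 phase 1 was raised and 4 were lowered (4.17% and 16.7%, against 12.4% and 14.8% of all tested genes). The raised member, Rb1, lost its call without non-induced replicate 1 or induced replicate 2 (log2 fold changes of 0.78 and 0.74). Cdk6 fell from 142 and 225 to 67.1 and 54.7 CPM (-1.59 ± 0.27, adjusted p = 0.00122). The CDK inhibitor Cdkn1a went from 53.7 and 26.1 to 17.4 and 7.52 CPM (-1.68 ± 0.42, adjusted p = 0.00963), a call lost without non-induced replicate 1 (adjusted p = 0.158). The CDK inhibitor p27, Cdkn1b, gave 46.0 and 36.5 against 53.0 and 61.7 CPM (0.47 ± 0.26, adjusted p = 0.187) and was not called.

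Most factors that build ribosomes fell. In ribosome biogenesis 27 of 30 tested genes were lowered, with none raised and a median of -1.20. Fibrillarin (Fbl), which methylates ribosomal RNA, was at 219 and 285 CPM in the non-induced and 81.7 and 43.9 CPM in the induced libraries (log2 fold change of -2.00 ± 0.30 (SE), adjusted p = 5.07e-04). Gar1, of the pseudouridine machinery, went from 67.9 and 72.4 to 26.1 and 13.4 CPM (-1.83 ± 0.32, adjusted p = 0.00120). The RNA polymerase I subunit Polr1a went from 174 and 149.5 to 63.4 and 33.5 CPM (-1.74 ± 0.30, adjusted p = 0.00115). Nucleophosmin (Npm1) went from 1519 and 2224 to 848 and 741 CPM (-1.24 ± 0.26, adjusted p = 0.00369). Of 79 cytosolic ribosomal proteins none was lowered and 2 were raised, with a median of 0.12. Those 2, Rps29 and Rps7, each lost the call when a library was left out, Rps7 without non-induced replicate 1, non-induced replicate 2, induced replicate 1 or induced replicate 2 (adjusted p = 0.139, 0.0649, 0.111 and 0.221) and Rps29 without non-induced replicate 2. Mitochondrial ribosomal proteins were lowered in 18 of 77 cases and oxidative phosphorylation genes in 10 of 75 (23.4% and 13.3%, against 14.8% of all tested genes), with medians of -0.40 and -0.34.

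Most glycolysis genes fell, with a list median of -1.37, and 15 of its 19 genes were lowered with none raised. The summed level went from 18500.0 and 14980.0 CPM to 6978 and 5816 CPM. Hexokinase 2 (Hk2), which traps glucose in the cell, stood at 395 and 332 CPM in the non-induced and 67.9 and 12.3 CPM in the induced libraries (log2 fold change of -3.18 ± 0.53 (SE), adjusted p = 9.59e-04), and induced replicate 2 was the lowest of the 4. The glucose carrier Slc2a3 went from 1066 and 638 to 170.3 and 83.4 CPM (-2.75 ± 0.35, adjusted p = 1.50e-04). Pgam1, phosphoglycerate mutase, went from 1508 and 897 to 316 and 147 CPM (-2.38 ± 0.35, adjusted p = 4.43e-04). Pkm, the pyruvate kinase of dividing cells, went from 2784 and 2309 to 782 and 624 CPM (-1.86 ± 0.25, adjusted p = 2.24e-04). Lactate dehydrogenase A (Ldha) went from 2396 and 1900.4 to 692 and 395 CPM (-1.98 ± 0.29, adjusted p = 4.08e-04). Gapdh, often used to scale expression, fell from 1628 and 1164 to 649 and 683 CPM (-1.07 ± 0.25, adjusted p = 0.00701), a call lost without non-induced replicate 1 (adjusted p = 0.0520), and Ppia, another such gene, from 1134 and 1084 to 473 and 327 CPM (-1.47 ± 0.25, adjusted p = 0.00123).

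Sterol synthesis was lowered in 16 of 22 genes and raised in none (median -1.14). Farnesyl diphosphate synthase (Fdps) went from 229 and 179 to 50.8 and 35.0 CPM (-2.25 ± 0.27, adjusted p = 1.01e-04). Nsdhl went from 89.4 and 76.5 to 24.0 and 16.6 CPM (-2.03 ± 0.28, adjusted p = 2.45e-04). Dhcr7, which makes cholesterol itself, went from 125 and 96.5 to 31.7 and 33.0 CPM (-1.78 ± 0.25, adjusted p = 3.40e-04). The fatty acid desaturases Scd1 and Scd2, outside the list and picked after their values were seen for being among the most abundant lowered genes, followed from 1628 and 1692 to 373 and 240.4 CPM and from 4613 and 4008 to 1392 and 749 CPM (-2.44 ± 0.27, adjusted p = 5.59e-05 and -2.01 ± 0.30, adjusted p = 4.13e-04).

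In the list of autophagy and mitochondrial clearance 9 of 32 genes were raised and 1 lowered (28.1% and 3.12%, against 12.4% and 14.8% of all tested genes). Ulk1, the kinase that starts autophagy, went from 43.3 and 32.4 to 121 and 145 CPM (1.81 ± 0.26, adjusted p = 3.40e-04), whereas Bnip3l (NIX), the mitochondrial receptor needed in reticulocytes, gave 249 and 305 against 329 and 374 CPM and was not called. Its relative Bnip3 was the lowered member (314 and 298 to 174 and 105 CPM, -1.14 ± 0.27, adjusted p = 0.00797), not called without induced replicate 2 (adjusted p = 0.121). Of 13 BCL2 family genes 5 were raised (38.5%) and none lowered. The BH3-only gene Bcl2l11 (BIM) went from 32.4 and 23.6 to 206 and 233 CPM (2.96 ± 0.27, adjusted p = 8.86e-06). Bid went from 48.4 and 39.5 to 177 and 248 CPM (2.27 ± 0.27, adjusted p = 8.16e-05). The survival gene Bcl2 went from 227 and 223 to 697 and 609 CPM (1.54 ± 0.24, adjusted p = 5.64e-04). Bik and Bmf were the other raised members. Bcl2l1, which encodes BCL-XL, the survival factor of late erythroblasts, gave 22.7 and 18.8 against 26.4 and 31.8 CPM and was not called. Among ubiquitin genes the E3 ligase Trim10 rose from 34.3 and 40.0 to 137 and 135 CPM (1.88 ± 0.24, adjusted p = 1.77e-04). The E2 enzyme Ube2l6 went from 23.8 and 20.8 to 74.1 and 103 CPM (1.99 ± 0.27, adjusted p = 2.34e-04). In that list 6 of 19 were raised (31.6%) and none lowered, and proteasome subunits were lowered in 14 of 38 cases (36.8%). In the integrated stress response 3 of 17 genes were raised and 4 lowered (17.6% and 23.5%), the raised ones being Eif2ak1, Ppp1r15a and Ppp1r15b and the lowered ones Ddit3, Psat1, Phgdh and Shmt2. Eif2ak1 (HRI), the kinase that ties translation to haem, rose from 61.3 and 59.6 to 149.6 and 263 CPM (1.77 ± 0.29, adjusted p = 7.55e-04). Ppp1r15b, which undoes its action, went from 285 and 299 to 968 and 1342 CPM (1.98 ± 0.25, adjusted p = 1.58e-04).

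The linker histone of resting cells, H1f0, was at 122 and 158 CPM in the non-induced and 1268 and 1064 CPM in the induced libraries (log2 fold change of 3.06 ± 0.26 (SE), adjusted p = 5.73e-06). The clustered linker histone Hist1h1c went from 1.20 and 1.18 to 37.0 and 28.3 CPM (4.77 ± 0.39, adjusted p = 4.39e-06). It was 1 of the 15 largest rises among genes at a mean of at least 10 CPM without overlap of the groups. In all 9 of the 12 genes in the list of linker and variant histones were raised. That list also holds the clustered H2B genes Hist1h2bc, Hist1h2be and Hist2h2be. These and Hist1h1c are counted again among the clustered histone genes below. H2afy, macroH2A1, was the lowered member of the list (141 and 154 to 96.1 and 69.1 CPM). Its call was lost without non-induced replicate 1, non-induced replicate 2 or induced replicate 2 (log2 fold changes of -0.91, -0.77 and -0.60). Among clustered H2B genes, a list added after the values were seen, 16 of 17 were raised, with a median log2 fold change of 2.87. Of H2A genes 2 of 14 were raised (median 0.80), of H3 genes 0 of 5 (1.06) and of H4 genes 0 of 8 (2.20), and all 47 tested clustered histone genes had log2 fold changes above 0. The H3 and H4 genes were near the limit of reading before induction, with medians of 0.441 and 0.378 CPM. Of the 60 clustered histone genes listed, 13 were removed by the filter on low counts. Genes so low before induction may have passed it only through the induced libraries, which would fix their direction. The shared direction of the 47 is therefore no more than a description. The coding sequences of clustered histone copies are alike, so reads may have been shared between copies and the 16 H2B calls are not 16 separate measurements. Most replication-dependent histone transcripts are known to lack a poly(A) tail and are poorly captured by mRNA libraries, and the tail of the transcripts read here was not tested. In DNA methylation 3 of 7 tested genes were lowered and 1 raised (42.9% and 14.3%, against 14.8% and 12.4% of all tested genes). Of the maintenance factors, Dnmt1 went from 2165 and 2549 to 1478 and 1124 CPM. It was not called without non-induced replicate 2 or induced replicate 2 (log2 fold changes of -0.73 and -0.66). Uhrf1 went from 332 and 314 to 178 and 106 CPM (-1.19 ± 0.27, adjusted p = 0.00645, not called without induced replicate 2 (adjusted p = 0.0989)). The dioxygenase Tet3 went up from 134 and 105 to 315 and 388 CPM (1.55 ± 0.25, adjusted p = 7.75e-04).

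**Figure D3:**
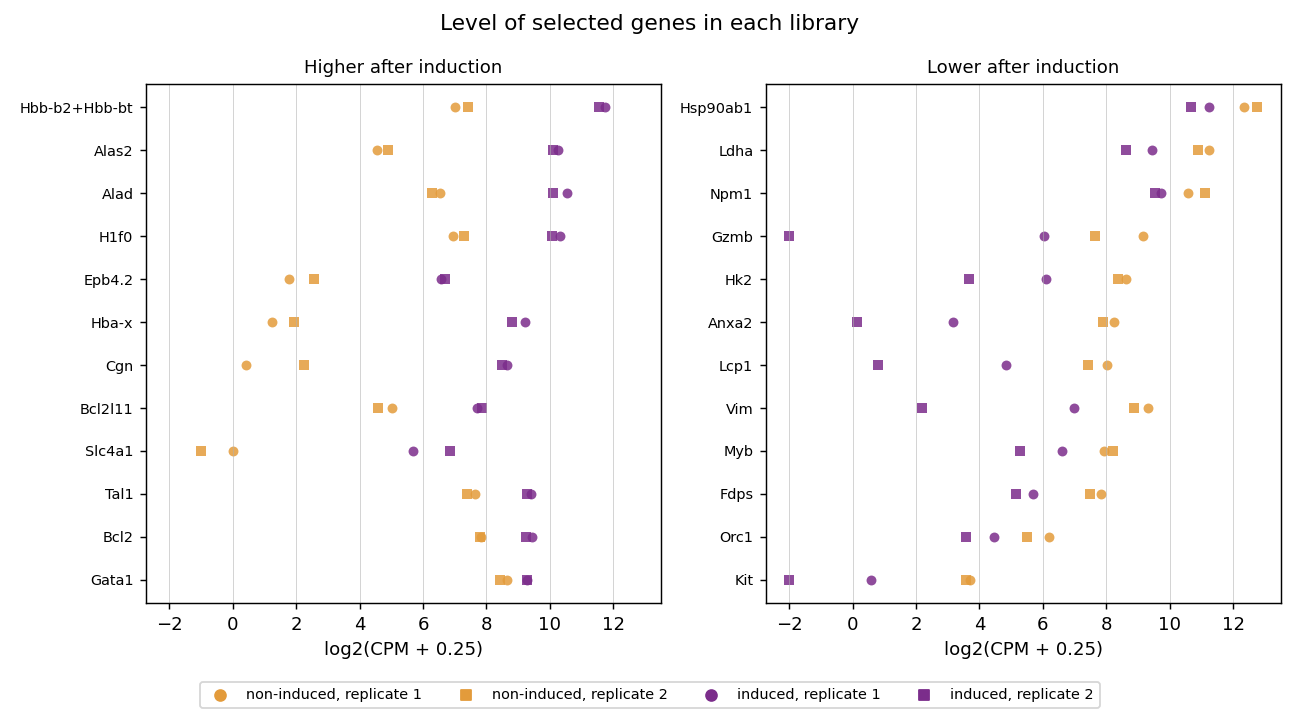
Level of 12 raised genes (left) and 12 lowered genes (right) in each of the 4 libraries, as log2 of CPM plus 0.25, with non-induced libraries in orange, induced libraries in purple, replicate 1 as circles and replicate 2 as squares. The groups are separate for each gene shown, and for Gzmb, Anxa2, Lcp1 and Vim induced replicate 2 lies far below induced replicate 1.

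The largest rises also took in genes outside the lists. By rule (the 15 largest log2 fold changes among raised genes at a mean of at least 10 CPM with groups that do not overlap) they included Cgn, cingulin of tight junctions, from 1.10 and 4.46 to 398 and 363 CPM (7.19 ± 0.50, adjusted p = 9.44e-07). BC021767 went from 0.847 and 2.86 to 365 and 339 CPM (7.67 ± 0.46, adjusted p = 2.74e-07). Gm8221 went from 0 and 0.421 to 41.2 and 28.9 CPM (7.67 ± 0.68, adjusted p = 7.69e-06). The Rab effector Rab3il1 went from 1.59 and 2.10 to 107 and 105 CPM (5.86 ± 0.32, adjusted p = 1.21e-07). The tetraspanin Tspan18 went from 0.747 and 1.09 to 41.1 and 29.5 CPM (5.29 ± 0.42, adjusted p = 3.05e-06). The apolipoprotein L genes Apol11a, Apol11b and Apol10a, neighbours of 1 family whose copies may share reads, rose together (6.62, 5.10 and 5.26 as log2 fold changes). By CPM, which is not scaled to gene length, the splicing regulator Mbnl1 was highest among raised genes. It went from 3001 and 4842 to 9233 and 11134 CPM (1.38 ± 0.27, adjusted p = 0.00275). In RPKM it lay below the globin entry Hbb-b2+Hbb-bt after induction (means of 2238 and 5068). The cytokine receptor gene Il31ra, picked after its value was seen, went from 660.4 and 662 to 5056 and 4539 CPM (2.86 ± 0.25, adjusted p = 5.73e-06). The thioredoxin inhibitor Txnip, picked likewise, went from 964 and 1122 to 3049.8 and 4817 CPM (1.92 ± 0.27, adjusted p = 3.32e-04). Of all listed genes 10 were at no more than 3 counts in both non-induced libraries and at 50 or more in both induced ones, among them Prss23 and Slfn14, and 2, Ffar2 and Ppbp, showed the reverse.

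The same rule named 15 lowered genes, and in several of them the induced libraries differed. Anxa2, annexin A2, was at 303 and 235 CPM in the non-induced and 8.78 and 0.851 CPM in the induced libraries (log2 fold change of -5.80 ± 0.65 (SE), adjusted p = 5.55e-05). The mucin Muc13 was at 191 and 211 CPM in the non-induced and 9.47 and 5.53 CPM in the induced libraries (log2 fold change of -4.74 ± 0.32 (SE), adjusted p = 7.45e-07), low in both induced libraries. The lectin Siglecf went from 90.0 and 73.3 to 6.02 and 2.27 CPM (-4.30 ± 0.40, adjusted p = 1.09e-05). Fibrillin 1 (Fbn1) went from 39.9 and 37.4 to 3.04 and 1.13 CPM (-4.20 ± 0.43, adjusted p = 2.78e-05). The actin bundler Lcp1 went from 257 and 171 to 28.4 and 1.49 CPM (-3.84 ± 0.76, adjusted p = 0.00276), which induced replicate 1 held at 411 counts and induced replicate 2 at 21. DESeq2 did not call it (adjusted p = 0.0587). Granzyme B (Gzmb) had 949 counts in induced replicate 1 and 0 in induced replicate 2 (566 and 199 to 65.6 and 0 CPM, -3.54 ± 1.15, adjusted p = 0.0353), and it was not called without non-induced replicate 1 or non-induced replicate 2 (adjusted p = 0.257 and 0.108) or in DESeq2 (adjusted p = 0.486). Vimentin (Vim), an intermediate filament lost in late erythroid cells, went from 632 and 467 to 127 and 4.25 CPM (-3.06 ± 0.86, adjusted p = 0.0176), not called without non-induced replicate 1 or non-induced replicate 2 (adjusted p = 0.119 and 0.0977) or in DESeq2 (adjusted p = 0.190). The adhesion receptor Cd44, which erythroblasts shed as they mature, went from 171 and 197 to 66.0 and 33.9 CPM (-1.88 ± 0.30, adjusted p = 7.61e-04). In the megakaryocyte list 5 of 11 tested genes were lowered, Gp5, Ppbp, Itgb3, Treml1 and Tubb1, and 2 were raised, Gp1ba (8.07 and 7.99 to 35.1 and 29.1 CPM) and Itga2b (217 and 157 to 968 and 604 CPM), which is 45.5% and 18.2%, against 14.8% and 12.4% of all tested genes. At the top of the scale the chaperone Hsp90ab1 fell from 5252 and 6924 to 2429 and 1633 CPM (-1.58 ± 0.27, adjusted p = 0.00108).

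The response was set beside those to the knockdown of 3 repressors in MEL cells, each with 2 control libraries of its own. The Cbfa2t3 knockdown holds 4 libraries, 2 for each of the hairpins sh2 and sh3, taken as 1 group. The Irf2bp2 knockdown (hairpin sh1) and the Gfi1b knockdown hold 2 libraries each. In the knockdown of Cbfa2t3 (ETO2) 2.99% of tested genes were raised and 2.75% lowered, in that of Irf2bp2 10.1% were raised and 12.5% lowered. Of the genes raised by induction that could be tested there, 184 of 1389 (13.2%) were also raised by the Cbfa2t3 knockdown and 8 lowered. Of those lowered by induction 190 of 1718 (11.1%) were lowered and 31 raised. Counted from the knockdown, 55.1% of its raised and 57.6% of its lowered genes moved the same way on induction. In the Irf2bp2 knockdown 424 of 1387 (30.6%) of the genes raised by induction were raised and 96 lowered, and 482 of 1719 (28.0%) of those lowered were lowered and 47 raised, which is 36.3% and 33.0% of that knockdown's raised and lowered genes. For the Gfi1b knockdown no gene was called in either direction (0% of 11190 by edgeR, with 784 at an unadjusted p under 0.05 and 59 called by DESeq2, 53 raised and 6 lowered).

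By gene list, haem synthesis was raised in 10 of 13 genes by the Cbfa2t3 knockdown and in 13 of 13 by the Irf2bp2 knockdown, with Alas2 at log2 fold changes of 2.10 and 3.28 and Slc4a1 at 3.93 and 5.13. In the replication list 0 of 34 genes were called in the Cbfa2t3 knockdown, and 1 was raised and 3 lowered in the Irf2bp2 knockdown. In ribosome biogenesis the counts were 0 of 30, and 0 raised with 2 lowered. Glycolysis had 2 genes raised and 1 lowered of 19 in the Cbfa2t3 knockdown, but 9 lowered and 0 raised in the Irf2bp2 knockdown, the direction seen on induction. Sterol synthesis went the other way in the Irf2bp2 knockdown, where 12 of 22 genes were raised and 0 lowered, against 16 lowered on induction. Vim had log2 fold changes of -3.06 on induction and -3.07 and -3.81 in the Cbfa2t3 and Irf2bp2 knockdowns.

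Sites bound by the ETO2 and IRF2BP2 proteins were then counted near the start of each gene. Of the tested genes 10325 (88.1%) matched a gene with a single start in the annotation, and 13229 sites were used in 3 classes, ETO2-only, shared by both proteins and IRF2BP2-only, as read from the sizes of the list's coded classes. A shared site lay within 10 kb of the start in 14.7% of raised genes (186 of 1265, 95% Wilson interval of 12.9 to 16.8), in 7.73% of lowered genes (6.52 to 9.14), in 5.53% of genes not called (5.03 to 6.07) and in 6.99% of all tested genes. ETO2-only sites lay near 8.46% of raised genes (7.05 to 10.1), 3.68% of lowered genes (2.86 to 4.71) and 4.24% of all. For IRF2BP2-only sites the shares were 35.1% of raised (32.5 to 37.8), 37.8% of lowered (35.4 to 40.2), 33.1% of not called (32.0 to 34.1) and 34.0% of all genes. The intervals of raised and lowered genes overlap, and that of lowered genes lies above that of genes not called. Of the 114 genes raised by 8-fold or more, 21.1% had an IRF2BP2-only site (14.6 to 29.4), an interval below that of genes not called. Shared sites lay near 16.7% of them (10.9 to 24.6) and ETO2-only sites near 12.3% (7.46 to 19.6). These intervals cover counting error only. Ordered by fold change, and split into 10 bins of equal size, the bin of genes that rose most had a shared site in 14.3% of cases and the bin below it in 8.43%, with the lowest share of 4.36% in bin 6 and 7.84% in the bin of genes that fell most. The median log2 fold change in the knockdowns of Cbfa2t3, Irf2bp2 and Gfi1b was 0.0966, 0.263 and 0.889 in the bin that rose most and -0.0994, -0.367 and -0.183 in the bin that fell most, values given as a description.

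**Figure D4:**
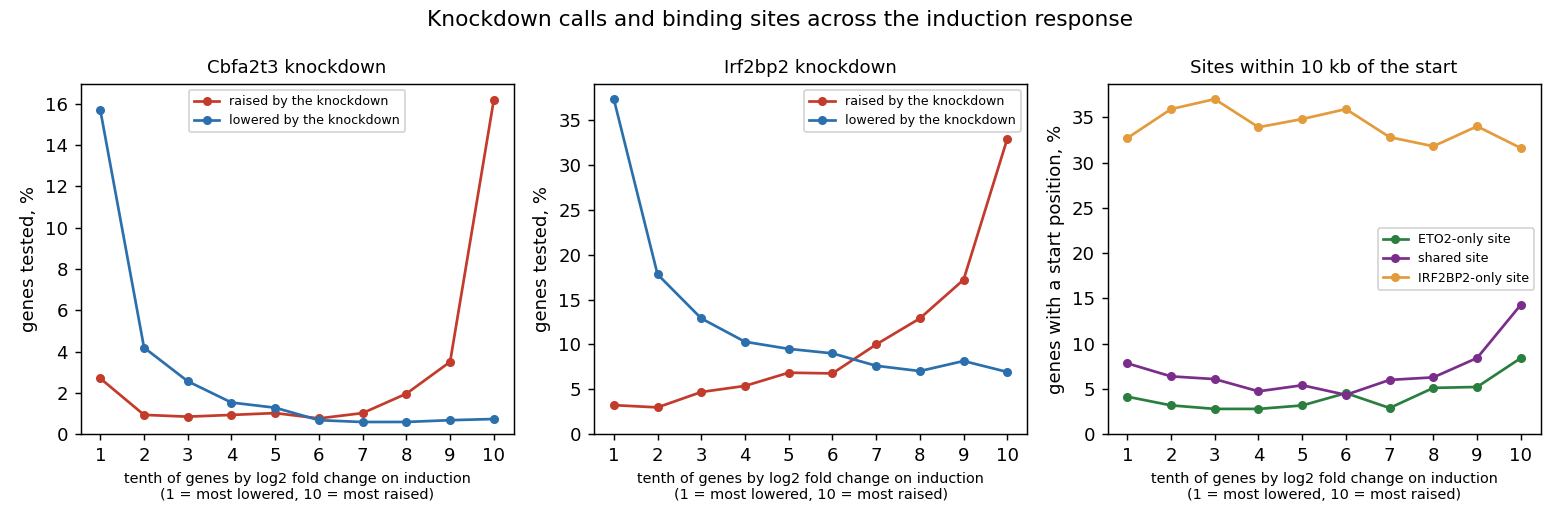
Genes tested are sorted into 10 bins by log2 fold change on induction (horizontal axis, 1 being the most lowered and 10 the most raised), with the share called in the Cbfa2t3 knockdown (left), the Irf2bp2 knockdown (middle) and the share with a site within 10 kb (right), all in per cent. In the most raised bin 16.2% and 32.9% were raised by the knockdowns of Cbfa2t3 and Irf2bp2, in the most lowered bin 15.7% and 37.3% were lowered by them.

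To show what such sites look like, the stretches below are from 4 of the raised genes with the largest rises that have a shared site within 10 kb holding the composite of CTG, 6 to 8 bases and the letters GATA, with A or T before them and A or G after them, outside any annotated exon, a rule made after the values were seen. The composite is the letters at which TAL1 and GATA1 are known to sit side by side, and it is printed in capitals with 20 bases of flank on each side, from the mm9 genome, 5′ to 3′ on the strand named.
Slc4a1, chr11:102225040-102225096, plus strand: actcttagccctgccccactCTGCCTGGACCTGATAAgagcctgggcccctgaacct
Alas2, chrX:146984377-146984433, minus strand: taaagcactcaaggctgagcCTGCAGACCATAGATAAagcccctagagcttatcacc
Slc22a4, chr11:53840190-53840246, plus strand: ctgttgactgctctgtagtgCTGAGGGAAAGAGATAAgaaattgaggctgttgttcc
Phyhip, chr14:70866176-70866231, minus strand: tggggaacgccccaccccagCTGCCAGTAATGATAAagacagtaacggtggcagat

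All 4 stretches lie in introns by the GENCODE vM1 annotation, that of Alas2 in a stretch where Apex2 is annotated as well. The site centres lie 2447, 2476, 1405 and 8848 bases downstream of the annotated starts, in the order printed. The letters, searched on both strands, were found within 201 bases around the centre in 32.7% of shared sites, 33.9% of ETO2-only sites and 6.29% of IRF2BP2-only sites, against 15.4% of all sites. A match is a description of the letters and was not tested as a binding site. The carriers of the printed stretches include Slc22a4, a transporter of ergothioneine, which rose (3.92 ± 0.36, adjusted p = 1.09e-05), and Phyhip (1.49 and 1.85 to 20.7 and 22.8 CPM, 3.71 ± 0.40, adjusted p = 4.32e-05).

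Letter runs in the 250 bases before the start (RefSeq, GRCm38.p6, 9385 genes matched, 80.1% of those tested, both strands) were counted as well. AGATAA was present in 5.97% of raised promoters (4.75 to 7.47), 8.46% of lowered ones (7.12 to 10.0) and 6.08% of all tested ones. The 107 promoters of genes that rose by 8-fold or more held it in 12.1% of cases (7.24 to 19.7). That interval covers the share of 10.3% among all 27025 RefSeq promoters, tested or not. CCACACCC, letters bound by KLF1, was in 4.09% of raised and 3.66% of lowered promoters. CACGTG, letters bound by MYC, was in 8.10% and 9.40%, and TTCCCGCC, letters bound by E2F factors, in 2.73% and 3.73%. For each of these 4 letter runs the intervals of raised and lowered promoters overlap, and for AGATAA that of lowered promoters lies above that of genes not called (5.62%, 5.10 to 6.19).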

How the data were processed

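RNA-Seq of 2 induced and 2 non-induced MEL samples was analysed. The authors mapped reads with TopHat2 to mm9 and deposited raw counts and RPKM per RefSeq gene. Counts came from the authors' rpkmforgenes, which gives combined names to genes it cannot part. Strand use and the inducing agent are not given in the sources used here. The deposited site list gives a fold (ratio) of enrichment and a class code per site, which the authors combined from 3 peak callers. Its classes were read from the class sizes. Deposited fold changes and p-values were not used.

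Counts were fitted in edgeR 4.0.16 (R 4.3.3) with TMM scaling, filterByExpr and the quasi-likelihood test, tested on simulated data, and p-values were adjusted by Benjamini-Hochberg over the 11713 genes tested, 4814 being filtered. The other 3 RNA tables were fitted alone in the same way. A called gene has an adjusted p of at most 0.05 and an absolute log2 fold change of at least 0.5. SE is the log2 fold change over the root of F. Named genes were drawn mainly from the gene lists and from the 10 highest RPKM of each group. Others came from the 15 largest rises and falls at 10 CPM or more without overlap of the groups. Most list members were not named, and 176 named genes were followed through the alternatives. Gene lists and their members were chosen with earlier results of these data known, and the clustered histone and solute carrier lists after the values were seen. The study's methods call the replicates independent biological samples, which the labels do not state, and p-values measure the spread between these samples.

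DESeq2 1.42.0, its size factors, 2 other filters, a replicate block, leaving out each library and other limits were tried. Some genes are not reported here by name, though the counts of their lists include them.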

Additional observations from a re-analysis of the deposited data

How the results depend on the processing

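The number of genes called by induction was 3187 (1449 raised and 1738 lowered) and ranged from 1522 to 3369 when 1 library was left out. Those raised ranged from 726 to 1423 and those lowered from 796 to 1946. Leaving out non-induced replicate 1 gave 1626 (748 raised and 878 lowered), non-induced replicate 2 gave 1522 (726 and 796) and induced replicate 2 gave 1772 (927 and 845). The lone library of a group is then assumed to vary like the pair of the other. Without induced replicate 2 the raised share of calls was 52.3%, against 45.5% with all libraries. Of the 3187 genes 2719 were also called without induced replicate 1. DESeq2 called 3300 (3056 shared), DESeq2 size factors in edgeR 3150, no filter 3589 and at least 10 counts in every library 3036. A limit of 1 on the log2 scale gave 2300 and an unadjusted p 4608. With the replicate block, 3916 genes were called (1785 raised and 2131 lowered). Across 11713 genes, the deviations of same-numbered samples from their group means correlated at 0.196. With 2 libraries a group, both pairs give this same value. The samples of a pair share only a number.

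Of 176 named genes, 167 kept both direction and side of the threshold under DESeq2, and 141 to 159 did when 1 library was left out. Directions reversed in some genes that were not called with all libraries. With each library left out in turn, Nfe2 ranged from -0.082 to 0.91, Irf2bp2 from -0.38 to 0.25, Kdm1a from -0.15 to 0.33, Hdac3 from -0.075 to 0.0080, Ccnb1 from -0.086 to 0.24 and Eef1a1 from -0.17 to 0.14 on the log2 scale. Without induced replicate 2, Nfe2 was called raised (adjusted p = 0.0428). The cause was not tested. Shares of genes with a site moved with the window and the site filter: at 50 kb a shared site lay near 34.0% of raised, 26.7% of lowered and 24.5% of all genes, and at or above the median fold enrichment near 9.01%, 3.86% and 3.72%. With a limit of 1 on the log2 scale the 12 motif shares of raised and lowered genes lay within the intervals of the shares given, whereas genes raised by 8-fold or more lay outside them for AGATAA (12.1%), CACGTG (11.2%), TTCCCGCC (0.935%), CCAAT (43.0%) and TATAAA (10.3%), with intervals over 107 promoters that overlap those of all raised genes. The mean share of counts held by raised genes was 21% in induced libraries and, in an alternative chosen after seeing the data, 19.9% without Rn45s and Lars2.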

Other observations

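Solute carriers, a list added after the values were seen, were raised in 31 and lowered in 28 of 191 tested genes (16.2% and 14.7%), near the 12.4% and 14.8% of all tested genes. Among them the amino acid carrier Slc38a5 went from 43.2 and 66.6 to 268 and 404 CPM (log2 fold change of 2.62 ± 0.30 (SE), adjusted p = 6.51e-05), and the ADP/ATP carriers of mitochondria Slc25a4 and Slc25a5 went from 310.3 and 356 to 108 and 69.8 CPM and from 565 and 513 to 225 and 157 CPM (-1.91 ± 0.27, adjusted p = 3.30e-04 and -1.50 ± 0.26, adjusted p = 0.00111). In the interferon list 1 of 15 tested genes was raised and 3 lowered (6.67% and 20.0%), counts too small to set apart from those shares. The RNA sensor Ifih1 went from 134 and 210.4 to 50.9 and 40.2 CPM (-1.92 ± 0.28, adjusted p = 3.78e-04) and Oasl1 from 79.4 and 39.8 to 14.7 and 5.74 CPM (-2.55 ± 0.43, adjusted p = 9.75e-04).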
